A study of Mus musculus with 15 samples.

Results

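The 24 h comparison of this series sets primary mouse hepatocytes grown as three-dimensional aggregates in rotating wall vessels (RWV) against hepatocytes grown as monolayers in tissue culture dishes (TCD). Its members are the 3 RWV arrays and the 3 TCD arrays whose titles give 24 h, 6 of the 15 arrays in all. The series also holds 3 arrays of freshly isolated hepatocytes and 3 arrays of each vessel at 4 h. All cells came from male C57BL/6 mice, and the labels name no genetic change or drug and differ in vessel and time. Each group has 3 independent biological replicates according to the series' design. The age of the mice, the number of animals behind a replicate, and the medium are not given in the sources used here.

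The deposited values are taken as log2 signals, the usual scale of GCRMA; no label states the base, and every fold rests on it. They are signals from which the median of the 3 fresh arrays had been subtracted gene by gene. A value of 0 therefore means the level of fresh hepatocytes, and the absolute level of a gene cannot be read. Of 45101 probe sets, 34945 carry exactly 1 gene symbol, and 12423 genes with a probe set off the background were tested, each by 1 probe set. Measured members of a gene list are those among these 12423 genes. Differences below are log2 values of aggregates minus monolayers, and ± gives the standard error from the limma fit over all 15 arrays unless an SD is named. The fit shares 1 spread per gene over the 5 groups. Where most groups are flat near 0, the standard error and p can be too small for the 24 h comparison. A gene is called higher or lower where its limma p, adjusted over the 12423 genes by the Benjamini-Hochberg method, was below 0.05. Counts of called list members are to be read against the 15.2% called over all genes.

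As background, hepatocytes taken out of the liver and spread on a stiff dish flatten, build actin stress fibres and focal adhesions, and lose much of their liver-specific gene expression within a day. Cells kept in suspension join into aggregates, stay rounded and contact each other on most of their surface. The shape-sensing pathways that read cell spreading include the YAP and TEAD transcription complex of the Hippo pathway and the SRF and MRTF complex, which is controlled by free actin. Liver-specific expression rests on the hepatocyte nuclear factors, C/EBP proteins and nuclear receptors.

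At 24 h, 1890 of the 12423 genes were called, which is 15.2% of those tested. Of these, 1038 (8.36% of all genes) were higher and 852 (6.86%) were lower in aggregates. A difference of at least 2-fold was found for 931 called genes (7.49%), with 482 higher (3.88%) and 449 lower (3.61%). The largest differences leaned the other way, since 71 called genes were at least 8-fold lower and 29 at least 8-fold higher in aggregates. The median difference over all genes was -0.001, with quartiles at -0.23 and 0.24. The values of the 3 aggregate arrays lay wholly above or wholly below the 3 monolayer arrays in 4863 genes (39.1%), above in 2453 (19.7%) and below in 2410 (19.4%). With the arrays centred on 12 reference genes, which moved the median of all genes to 0.083, 1263 genes were called higher and 679 lower, so that the share of higher calls was 54.9% before and 65.0% after centring. Without aggregate replicate 2 the number of called genes was 1234.

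**Figure D1:**
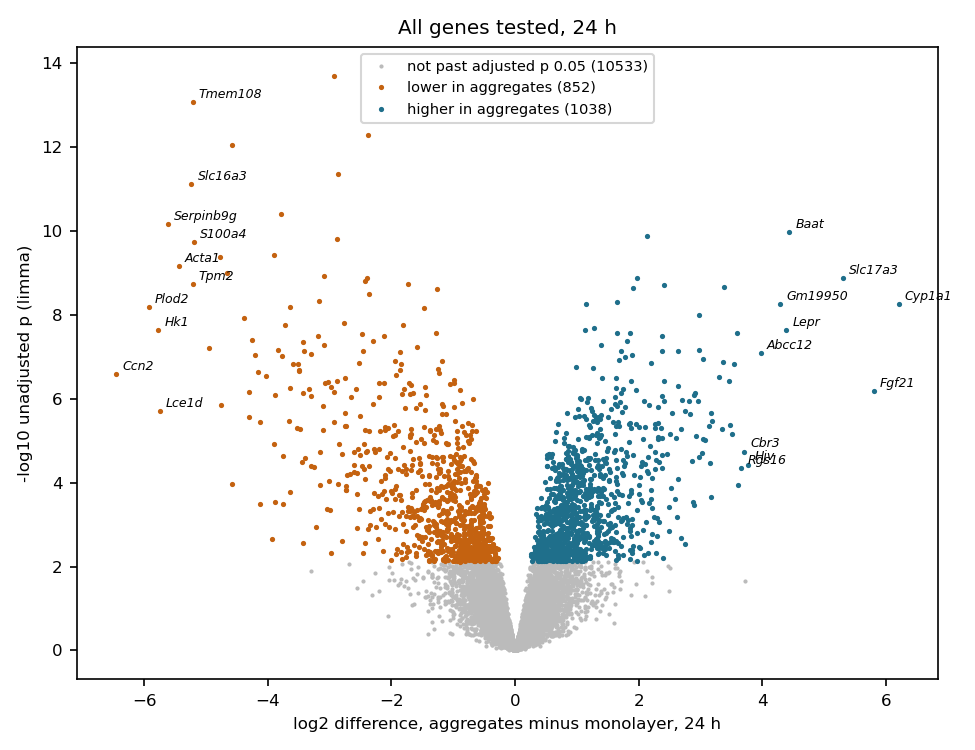
Each point is 1 of the 12423 genes, with the log2 difference of aggregates minus monolayers at 24 h on the x axis and -log10 of the unadjusted limma p on the y axis. The 1038 higher and 852 lower genes are coloured, and the 20 genes with the largest called differences are named; the left arm reaches -6.45 (Ccn2) and the right arm 6.20 (Cyp1a1).

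The array controls were compared between the vessels. For beta-actin, the control signal at the 3' end minus that at the 5' end lay between -0.45 and -0.43 in monolayers and between -0.26 and -0.22 in aggregates, a difference of 0.209 (two-sided exact permutation p = 0.1, the smallest that 3 against 3 arrays allow). The same gap for Gapdh differed by -0.022. The background median lay between -0.053 and -0.03 in monolayers and between -0.054 and -0.03 in aggregates. The array that stood apart in the series was a 4 h monolayer (replicate 2), with hybridisation controls at 1.08 and a fitted weight of 0.171. It entered the shared estimate of the spread, the 4 h values, the background filter and the choice of each gene's probe set. Without this array in the fit, with the genes and probe sets kept, 2280 genes were called at 24 h. The part of RNA quality in the results was not tested.

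The 10 genes with the largest higher differences were Cyp1a1, Fgf21, Slc17a3, Baat, Lepr, Gm19950, Abcc12, Hjv, Cbr3 and Rgs16. Cyp1a1, a cytochrome P450 that oxidises polycyclic aromatic compounds, stood at 0.64, -0.10 and -0.03 in the 3 monolayers and at 7.71, 5.96 and 5.46 in the 3 aggregates. The monolayers were near the fresh level and the aggregates far above it, a difference of 6.20 ± 0.42 (73.6-fold, adjusted p = 2.102e-06). Fgf21, a hormone that the liver secretes under metabolic stress, stood at 0.20, -0.03 and -0.05 in monolayers and at 5.58, 6.76 and 5.17 in aggregates, a difference of 5.80 ± 0.61 (55.6-fold). Lepr, the leptin receptor, had monolayer values of -0.06, -0.08 and -0.09 and aggregate values of 3.25, 4.53 and 5.14. In all 3 genes the 24 h monolayers lay near 0 and the aggregates far above it.

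In Slc17a3, Baat, Hjv and Rgs16 both vessels were below fresh cells, the monolayers further. Slc17a3, an organic anion and urate transporter, had fallen to -6.78, -7.79 and -7.03 in monolayers and to -2.46, -1.49 and -1.74 in aggregates, a difference of 5.30 ± 0.32. Baat, which couples bile acids to glycine or taurine, stood at -5.46, -6.18 and -6.13 in monolayers and at -1.68, -1.16 and -1.66 in aggregates (4.43 ± 0.21). Every aggregate array was above every monolayer array in both genes, as the choice of these genes required. Every array of either kind was below the fresh level. Hjv, the co-receptor that drives hepcidin expression, had a wider spread in monolayers (-2.95, -5.42 and -5.50) than in aggregates (-1.20, -0.52 and -0.84), and its difference was 3.77 ± 0.59. Rgs16, a regulator of G protein signalling, stood at -6.20, -5.15 and -6.48 in monolayers against -2.46, -2.08 and -2.32 in aggregates. The predicted gene Gm19950 stood at -3.45, -3.43 and -2.97 in monolayers and at 0.92, 1.35 and 0.74 in aggregates. Abcc12, an ABC transporter, differed by 3.97 ± 0.34. Cbr3, a carbonyl reductase, was already above fresh cells in monolayers (4.61, 4.55 and 5.28) and was higher again in aggregates (8.08, 8.80 and 8.65).

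The 10 genes with the largest lower differences were Ccn2, Plod2, Hk1, Lce1d, Serpinb9g, Acta1, Slc16a3, Tmem108, Tpm2 and S100a4. Ccn2, a matricellular protein also known as connective tissue growth factor and a standard YAP target, stood at 9.09, 9.49 and 9.86 in monolayers and at 3.06, 3.18 and 2.85 in aggregates. It was above the fresh level in all 6 arrays (difference -6.45 ± 0.62, 87.4-fold, adjusted p = 3.349e-05). The groups did not overlap, as the choice of these genes required. Plod2, the lysyl hydroxylase that prepares collagen for stable cross-links, stood at 6.75, 7.15 and 7.55 in monolayers and at 2.54, 0.46 and 0.68 in aggregates, a difference of -5.92 ± 0.41. Acta1, the skeletal muscle alpha-actin, was at 6.18, 4.41 and 5.51 in monolayers and at -0.03, -0.02 and -0.17 in aggregates. Tpm2, a tropomyosin that stabilises actin filaments, was at 6.24, 5.80 and 6.59 in monolayers against 0.34 to 1.64 in aggregates. S100a4, a calcium-binding protein of motile cells, was at 4.50, 5.15 and 6.02 in monolayers against 0.02, 0.01 and 0.05 in aggregates. In all of these the lowest monolayer array lay more than 3 log2 units above the highest aggregate array.

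The same group held Lce1d, a gene of the cornified envelope of skin (-5.75 ± 0.67), Serpinb9g, a serine protease inhibitor of the granzyme B inhibitor group (-5.62 ± 0.26), and Tmem108, a transmembrane protein (-5.22 ± 0.14). Lce1d and Serpinb9g were above fresh cells in aggregates too, with aggregate means of 4.81 and 2.96. The only probe set of Lce1d off the background can share sequence with other genes, so the source of its signal is uncertain. Of the 71 genes at least 8-fold lower in aggregates, 16 had all 3 aggregate arrays and all 3 fresh arrays within 0.2 of the array's background median, Acta1, S100a4 and Ankrd1 among them. Background probe sets and genes at their fresh level both lie near 0 on this scale and cannot be told apart. A gene at the background there has a difference that the floor limits. Of the 29 genes at least 8-fold higher, 1 had monolayer and fresh arrays within 0.2 of the background median, and that gene was Lepr.

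**Figure D2:**
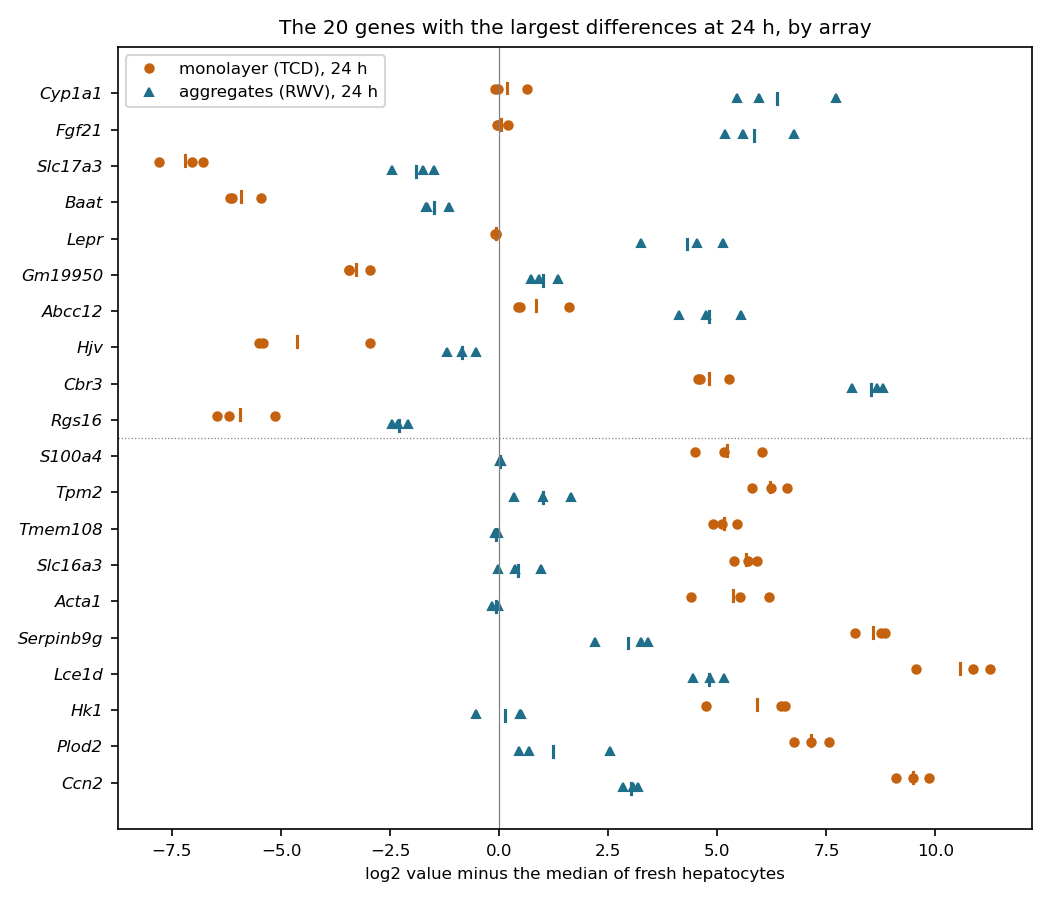
The log2 value minus the fresh median of each array is shown for the 20 genes with the largest called differences; circles are the 3 monolayers, triangles the 3 aggregates and vertical ticks the group means. The groups do not overlap in any of the 20, which the choice of these genes requires, and the genes differ in which group sits at the fresh level of 0.

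The vessel differences at 24 h were set against those at 4 h by the interaction of vessel and time. At 4 h itself, 766 genes (6.17%) were called. This interaction was called in 1573 genes (12.7% of those tested). The 24 h difference minus the 4 h difference was positive in 613 of them and negative in 960. A negative sign does not mean a smaller vessel difference, as Ccn2, with a larger difference at 24 h, is among the negative ones. On arrays centred on reference genes the numbers were 812 positive and 663 negative. For 18 of the 20 genes with the largest 24 h differences the interaction was called. Cyp1a1 differed by -0.05 at 4 h and by 6.20 at 24 h, and Baat by -0.02 and 4.43. Plod2 differed by -0.07 at 4 h, Slc16a3 by -0.10 and Acta1 by -0.04. The 4 h differences of Ccn2 (-1.50), Hk1 (-1.19) and Lce1d (-1.41) were not called. Fgf21 and Cbr3 were the exceptions. Fgf21 already differed by 5.06 at 4 h (interaction adjusted p = 0.6234) and Cbr3 by 2.61 (interaction adjusted p = 0.3871).

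**Figure D3:**
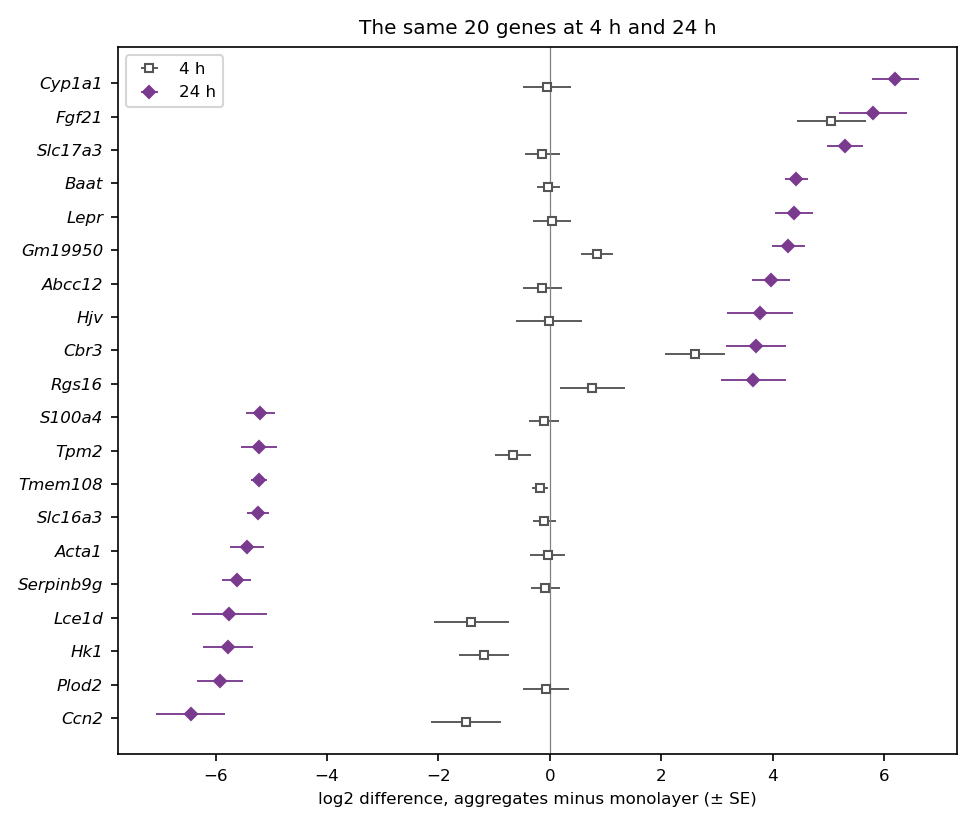
The log2 difference of aggregates minus monolayers is shown at 4 h (open squares) and at 24 h (filled diamonds), with standard errors from the limma fit, for the 20 genes with the largest called 24 h differences. Most 4 h differences lie near 0, while Fgf21 (5.06) and Cbr3 (2.61) were already apart.

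Transcription factors of hepatocyte identity were higher in aggregates where they were called. Of 19 measured hepatocyte nuclear factors and related regulators, 6 were called higher and none lower, and the median difference was 0.46 against -0.001 over all genes. Hnf4a, the nuclear receptor that governs much of the hepatocyte programme, stood at -1.93, -2.70 and -2.47 in monolayers and at -1.13, -0.81 and -1.04 in aggregates. Cebpa, which sustains liver metabolic genes, stood at -3.16, -3.69 and -3.28 in monolayers against -2.18, -1.95 and -1.90 in aggregates. Both had fallen below fresh cells in all 6 arrays, and the aggregates were above the monolayers by 1.37 ± 0.23 and 1.37 ± 0.18. Hnf4a lost its call in the fit of only these 6 arrays that paired them by replicate number. Atf5, a stress and differentiation factor, was above fresh cells in both vessels and higher in aggregates by 0.99 ± 0.16. Prox1, Nfia and Tbx3 were the other called members. Foxa1 (0.14) and Foxa2 (0.47) were not called, and their groups overlapped. Prox1 lost its call without monolayer replicate 2 (adjusted p = 0.05477) and without aggregate replicate 2 (0.06829), Tbx3 without monolayer replicate 2 or 3 or aggregate replicate 2 or 3, and Nfia when any of the 6 arrays but aggregate replicate 1 was left out. Without monolayer replicate 2 only 3 of the 19 members were called.

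Nuclear receptors and their coactivators showed the same direction where they were called. Of 25 measured members, 11 were called higher and none lower, with a median difference of 0.65 and a range from -0.82 to 2.88. The median over members stood at -1.78, -1.65 and -2.19 in the monolayers and at -1.07, -1.20 and -0.99 in the aggregates, so the groups did not overlap and both lay below fresh cells. Nr1h4, the bile acid receptor FXR, was at -3.85, -4.60 and -4.53 in monolayers and at -2.50, -1.28 and -2.11 in aggregates (2.36 ± 0.30, adjusted p = 0.0002669). Nr1i2, the xenobiotic receptor PXR, was at -4.40, -5.07 and -4.30 in monolayers against -2.40, -2.01 and -2.41 in aggregates (2.32 ± 0.26). Ppara, the fasting and fatty acid receptor, was at -5.34, -5.50 and -4.89 in monolayers against -3.38, -2.59 and -2.86 in aggregates (2.30 ± 0.51). In each of these 3 receptors the highest monolayer lay more than 1 log2 unit below the lowest aggregate. Esr1, the oestrogen receptor, differed by 2.88 ± 0.57 and Nr5a2, a partner of Hnf4a in bile acid genes, by 2.38 ± 0.35. The receptor gene Nr1i3 lay the other way (-0.60) without being called, with every aggregate array below every monolayer array. Its means were -4.57 in monolayers and -5.18 in aggregates. The count fell from 11 to 7 without monolayer replicate 2 and to 6 without aggregate replicate 2.

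**Figure D4:**
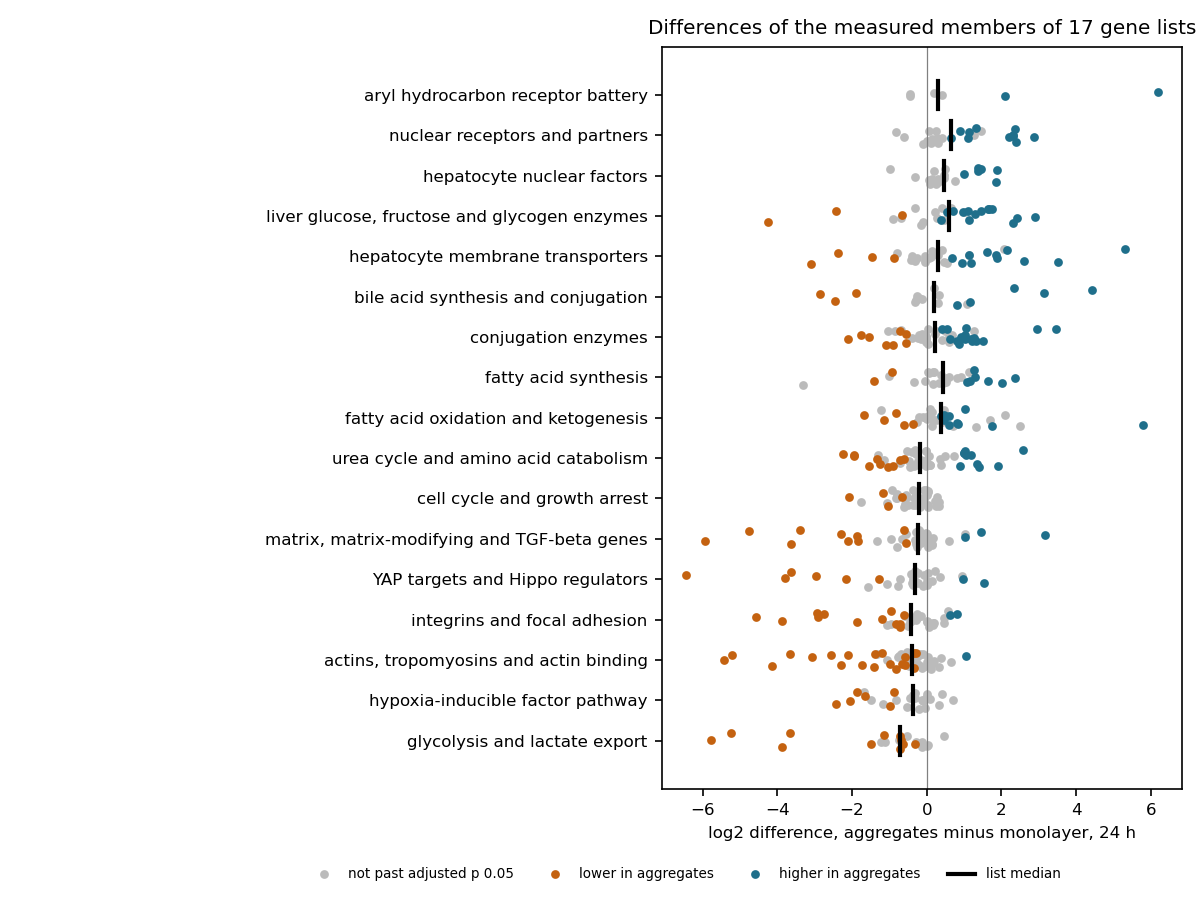
Each point is the log2 difference of 1 measured member of 17 gene lists, aggregates minus monolayers at 24 h, with called members coloured and the list median as a black bar. The medians of the glycolysis (-0.70) and actin (-0.40) lists lie left of 0 and those of the nuclear receptor (0.65) and liver glucose (0.61) lists right of it, and several lists hold called members on both sides.

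The aryl hydrocarbon receptor is a ligand-activated factor whose battery of detoxifying genes is led by Cyp1a1. Of 6 measured members, Cyp1a1 and Nqo1 were called higher and none lower. Nqo1, a quinone reductase that the NRF2 pathway also controls, stood at -0.53, -0.03 and -0.34 in monolayers and at 1.80, 2.10 and 1.48 in aggregates, a difference of 2.10 ± 0.27 (4.27-fold). The monolayers were at or slightly below the fresh level and the aggregates above it. Cyp1a2, the second hepatic member of the Cyp1a family, differed by 0.19 and was not called. The receptor Ahr itself (-0.46) and the repressor Tiparp (-0.45) were not called either. The motif that the receptor complex binds has the core GCGTG, and 28.2% of 32851 mouse promoter windows of the same length hold it on either strand. The 250 bases before the Cyp1a1 start are printed because this gene had the largest higher difference. They hold the core at 1 position, 54 bases before the start and shown in capitals, and were taken from RefSeq on GRCm38.p6 at chr9:57697363-57697612, plus strand. A stretch with the letters of a CArG box, the motif of SRF, also lies 32 bases before the start and is not marked. Such a stretch stands in 1.47% of the 32851 windows. Here it contains the letters tataaa, so the letters do not name a factor.
Cyp1a1: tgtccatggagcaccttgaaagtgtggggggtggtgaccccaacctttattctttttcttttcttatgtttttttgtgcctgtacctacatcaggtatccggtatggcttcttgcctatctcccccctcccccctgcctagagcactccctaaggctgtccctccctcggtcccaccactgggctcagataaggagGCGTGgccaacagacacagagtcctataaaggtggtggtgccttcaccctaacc

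Genes of glycolysis and lactate export were lower in aggregates where they were called. Of 21 measured members, 11 were called lower and none higher, and the list median was -0.70. The median over members stood at 1.67, 1.74 and 1.81 above fresh cells in the monolayers and at 0.80, 0.37 and 0.78 in the aggregates, so both vessels were above fresh cells and the aggregates less so. Hk1, a hexokinase that normal hepatocytes hardly express, stood at 4.75, 6.45 and 6.54 in monolayers and at 0.49, -0.54 and 0.48 in aggregates (-5.77 ± 0.45, adjusted p = 6.282e-06). Slc16a3, the monocarboxylate transporter MCT4 that exports lactate, stood at 5.70, 5.38 and 5.92 in monolayers against 0.96, -0.04 and 0.36 in aggregates (-5.24 ± 0.20). The aggregates were close to the fresh level in both genes. Hk2, the insulin- and hypoxia-inducible hexokinase, stood at 5.06, 6.23 and 6.54 in monolayers against 2.12, 1.14 and 3.62 in aggregates (-3.65 ± 0.68). Pfkp, the platelet type of phosphofructokinase, was lower (-3.88 ± 0.77), and its aggregate replicate 2 (1.65) lay well below the other aggregates (5.38 and 5.34). Pkm, the pyruvate kinase of non-hepatic tissue, stood at 9.29, 9.49 and 9.40 in monolayers against 8.26, 7.14 and 8.32 in aggregates (-1.49 ± 0.30), and Ldha, lactate dehydrogenase A, differed by -0.64 ± 0.11.

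Genes of the hypoxia-inducible factor pathway, which senses oxygen through prolyl hydroxylases and drives glycolytic genes, were lower in 6 of 25 measured members and higher in none. The list median was -0.38. Higd1a, a mitochondrial protein induced by hypoxia, was near or above fresh cells in monolayers (0.76, 1.51 and 0.02) and below them in aggregates (-1.54, -1.97 and -1.52). Egln3, an oxygen-sensing prolyl hydroxylase, stood at 4.34, 4.86 and 4.62 in monolayers against 3.31, 1.76 and 3.17 in aggregates (-1.86 ± 0.35). Ero1a, which oxidises disulfides in the endoplasmic reticulum, stood at 5.83, 6.53 and 6.43 in monolayers against 4.58, 3.67 and 4.39 in aggregates (-2.05 ± 0.33). The groups did not overlap in any of these 3. The factor Hif1a itself differed by -0.14 and was not called. Egln1 was lower (-1.65 ± 0.39) and lost its call without monolayer replicate 2 (adjusted p = 0.05414) or aggregate replicate 2 (0.05319). Vegfa, the endothelial growth factor, differed by -0.88 ± 0.23 and lost its call without monolayer replicate 2 (0.09358) or 3 (0.06065), and without shared-sequence probe sets its value was -0.36 (0.2816).

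The core that hypoxia-inducible factors bind, ACGTG on either strand, stands in 16.6% of the 32851 promoter windows of 250 bases. Among the 11 glycolysis genes called lower, 7 had it in at least 1 RefSeq promoter window, Hk2, Pkm, Ldha and Slc16a3 among them, and Hk1 and Pfkp were among the 4 without it. Several of these genes have more than 1 start, and the share is not matched for base composition. GCGTG, the aryl hydrocarbon receptor core, was in 5 of the same 11. The Slc16a3 window is printed as the example from the lower glycolysis genes, chosen after its values were seen. It was taken from GRCm38.p6 at chr11:120948817-120949066, plus strand, and holds the core 27 and 14 bases before the start, in capitals.
Slc16a3: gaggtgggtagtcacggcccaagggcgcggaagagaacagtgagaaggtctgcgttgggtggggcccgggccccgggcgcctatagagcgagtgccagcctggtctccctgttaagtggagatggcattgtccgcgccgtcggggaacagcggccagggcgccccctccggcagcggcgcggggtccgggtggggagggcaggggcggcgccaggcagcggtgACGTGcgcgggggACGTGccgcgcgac

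Enzymes that mark the liver's own glucose, fructose and glycogen handling went mostly the other way. Of 28 measured members, 14 were called higher and 3 lower, and the median over members stood at -1.71, -1.62 and -1.71 in monolayers and at -0.84, -0.49 and -0.72 in aggregates. Mlxipl, the glucose-responsive factor ChREBP, stood at -2.08, -2.17 and -2.31 in monolayers and at 0.07, 0.35 and 0.25 in aggregates (2.41 ± 0.15, adjusted p = 1.015e-06). Tkfc, which phosphorylates glyceraldehyde from fructose, stood at -1.13, -1.93 and -1.86 in monolayers against 1.48, 1.28 and 1.01 in aggregates (2.90 ± 0.31). Khk, ketohexokinase, the entry enzyme of fructose, stood at -0.79, -0.69 and -1.09 in monolayers against 0.74, 0.84 and 0.78 in aggregates (1.65 ± 0.11). The groups did not overlap in any of the 3, and the aggregate values of Mlxipl did not differ from fresh cells by the test (adjusted p = 0.3004). Gckr, the regulator of glucokinase, Gys2, the liver glycogen synthase, and Pygl, the liver glycogen phosphorylase, were below fresh cells in both vessels and higher in aggregates by 1.67 ± 0.21, 2.31 ± 0.29 and 1.14 ± 0.08. Slc2a2, the hepatocyte glucose transporter GLUT2, differed by 1.10 ± 0.21 and Pklr, the liver pyruvate kinase, by 1.29 ± 0.19.

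Pck1, the rate-controlling enzyme of gluconeogenesis, was 1 of the 3 lower members of this list. It had fallen to -6.32, -6.57 and -7.10 in monolayers and further to -10.91, -10.92 and -10.94 in aggregates, a difference of -4.26 ± 0.35 (19.2-fold, adjusted p = 9.05e-06). The 3 aggregate values lay within 0.1 of each other and near the lowest value of the whole table (-11.2). A signal at the floor and a low signal cannot be told apart here, and at the floor the fold would be a lower limit. Fbp1, a later gluconeogenic enzyme, differed by 0.37 ± 0.09 in the opposite direction and lost its call without monolayer replicate 1, aggregate replicate 2 or aggregate replicate 3. The pentose phosphate and NADPH enzymes had 3 of 10 measured members called higher, none lower, and a median difference of 0.54, among them Idh1, an NADP-dependent isocitrate dehydrogenase (0.70), and Taldo1, transaldolase (0.51 ± 0.08).

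**Figure D5:**
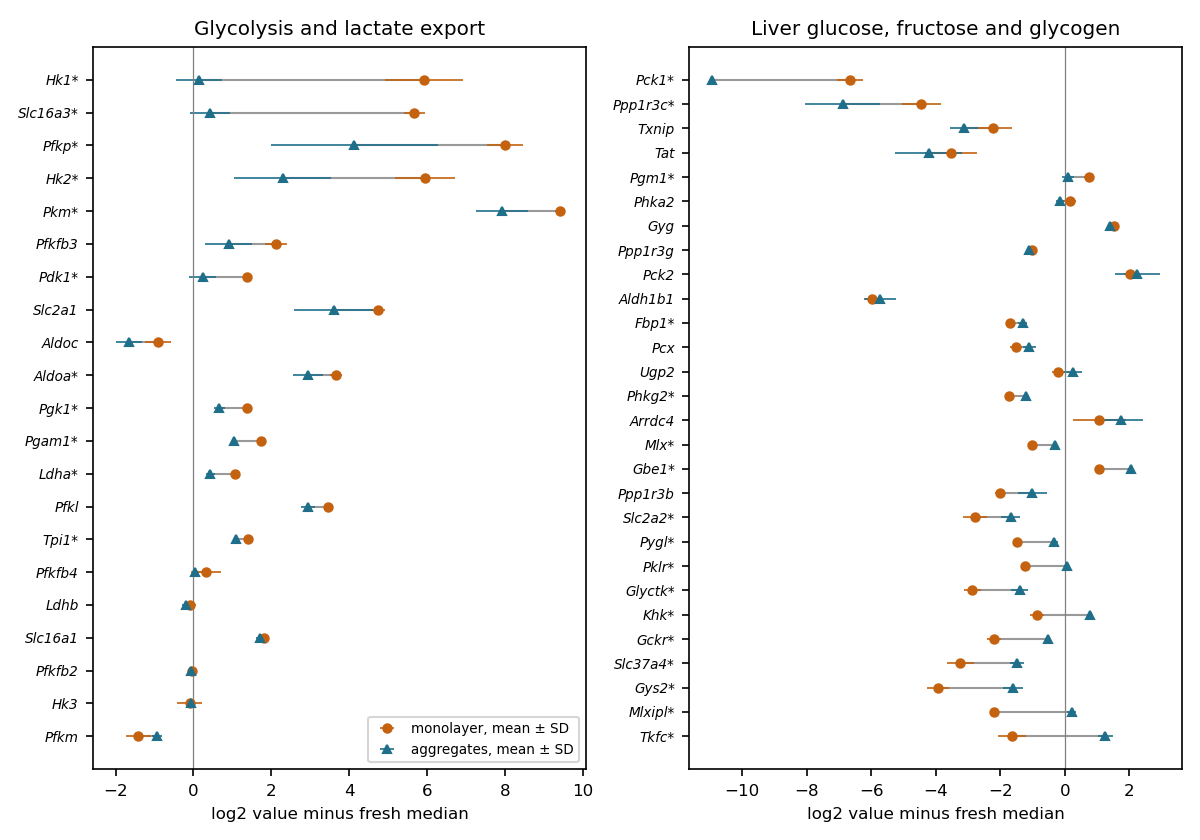
Group means with SD (n = 3 arrays each) of all measured members of the glycolysis list (left) and the liver glucose list (right), as log2 value minus the fresh median; circles are monolayers, triangles aggregates, and an asterisk marks a called gene. On the left the aggregates lie nearer to 0 than the monolayers for the 11 called genes, and on the right the monolayers lie further below 0 for most called genes, while 3 called genes, Pck1 among them at -10.92, lie lower in aggregates.

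Fgf21 is listed with fatty acid oxidation because the fasting receptor PPAR-alpha drives it, and its values are given above. The 250 bases before its start are printed because it had the second largest higher difference. They were taken from GRCm38.p6 at chr7:45615491-45615740, minus strand, and hold the palindrome shown in capitals, which counts as an ACGTG core on both strands, 50 bases before the start. This palindrome is also the E-box that ChREBP and other bHLH factors bind, so the letters do not name a factor. A GCGTG core also lies 72 bases before the start and is not marked.
Fgf21: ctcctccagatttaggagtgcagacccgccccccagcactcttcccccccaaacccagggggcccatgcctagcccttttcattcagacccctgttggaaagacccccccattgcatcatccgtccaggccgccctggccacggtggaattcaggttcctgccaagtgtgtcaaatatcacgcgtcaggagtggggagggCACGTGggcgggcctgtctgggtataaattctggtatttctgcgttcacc

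Genes of fatty acid synthesis were called higher in 7 and lower in 2 of 27 measured members, with a median difference of 0.43. Acaca, acetyl-CoA carboxylase, which makes malonyl-CoA, stood at -0.57, -0.61 and -0.58 in monolayers and at 1.43, 1.99 and 1.94 in aggregates (2.38 ± 0.20, adjusted p = 1.321e-05). Elovl6, an elongase of saturated fatty acids, stood at -1.60, -1.86 and -1.42 in monolayers against -0.21, 0.94 and 0.46 in aggregates (2.02 ± 0.34). The desaturase Fads2 went the opposite way, from -0.33, -0.23 and -0.06 in monolayers to -1.70, -1.87 and -1.26 in aggregates (-1.40 ± 0.23). Fasn, fatty acid synthase, differed by 1.64 ± 0.50 and lost its call when any 1 of the 6 arrays was left out. The count of 9 called members fell to 5 without monolayer replicate 2 or 3 or without aggregate replicate 3. Srebf1, the lipogenic factor SREBP-1, differed by 0.33 and was not called.

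The lipid droplet and lipoprotein list had 7 of 33 measured members called higher and 2 lower, with a median of 0.01. G0s2, an inhibitor of adipose triglyceride lipase, stood at -5.83, -4.59 and -5.69 in monolayers and at -2.52, -0.84 and -1.93 in aggregates (3.61 ± 0.64). Tm6sf2, which helps load lipid onto lipoproteins, stood at -2.38, -2.17 and -3.33 in monolayers against 0.59, 0.65 and 0.29 in aggregates (3.14 ± 0.40). Mttp, the transfer protein that builds very low density lipoproteins, differed by 1.96 ± 0.20, its cargo protein Apob by 0.90 ± 0.15, and the lipase Mgll by 2.54 ± 0.30. Cidea, a droplet protein of brown and steatotic cells, was lower in aggregates, at 2.50, 0.92 and 2.62 against 4.87, 4.78 and 5.16 in monolayers, while its relative Cideb was higher by 0.71 ± 0.11.

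Fatty acid oxidation and ketogenesis had 10 of 35 measured members called higher and 5 lower, with a median of 0.38. Fabp1, the liver fatty acid binding protein, was lower in aggregates, at -3.03, -3.48 and -2.89 against -1.48, -1.88 and -0.98 in monolayers (-1.69 ± 0.22). Decr1 and Cpt2, mitochondrial enzymes, were higher by 1.74 ± 0.51 and 0.61 ± 0.18, but each lost its call without monolayer replicate 1 or 2 or aggregate replicate 2 or 3, and Decr1 also without monolayer replicate 3. Pdk4, a brake on pyruvate oxidation (-1.14 ± 0.35), lost its call in the fit on centred arrays and without 5 of the 6 arrays singly. The count of 15 called members fell to 8 without monolayer replicate 2, aggregate replicate 2 or aggregate replicate 3. Cpt1a, the entry step of mitochondrial oxidation, differed by 0.40 and was not called.

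In bile acid synthesis and conjugation, 5 of 17 measured members were called higher and 3 lower. Besides Baat, Cyp8b1, the sterol 12-alpha-hydroxylase that sets the share of cholic acid, was higher in aggregates, at -2.98, -2.62 and -3.60 against -6.23, -5.15 and -7.26 in monolayers (3.14 ± 0.49). Akr1d1, the 5-beta-reductase that shapes the steroid ring, was lower, at -7.87, -7.18 and -8.64 in aggregates against -5.48, -4.45 and -5.22 in monolayers (-2.85 ± 0.40). Akr1c6, an aldo-keto reductase of steroids, was also lower, at -5.56, -4.89 and -5.72 in aggregates against -3.12, -2.95 and -2.70 in monolayers (-2.47 ± 0.21). All 4 genes were below fresh cells in every array, so the vessels differed in how far each step had fallen. Cyp7a1, the rate-limiting enzyme of the pathway, differed by -0.28 and was not called.

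Hepatocyte membrane transporters were called higher in 11 and lower in 4 of 33 measured members. The median over members stood at -1.71, -1.90 and -2.80 in monolayers and at -0.82, -0.88 and -0.87 in aggregates. Slc17a1, a phosphate and urate transporter encoded beside Slc17a3, stood at -2.81, -3.26 and -3.08 in monolayers and at -0.37, 0.98 and 0.79 in aggregates (3.52 ± 0.46). Slco2b1, an organic anion uptake transporter, stood at -4.89, -4.48 and -4.94 in monolayers against -3.13, -2.69 and -2.92 in aggregates (1.85 ± 0.15). Abcc4, an export pump of the sinusoidal membrane, was above fresh cells in all 6 arrays and higher in aggregates by 2.62 ± 0.57. Among the lower members, Slco1b2, the main hepatic uptake carrier of the OATP1B kind, stood at -7.73, -6.37 and -7.70 in aggregates against -4.93, -5.06 and -4.71 in monolayers (-2.37 ± 0.38). Slco2a1, a prostaglandin transporter, was above fresh cells in monolayers (2.26 ± 0.35, SD, n = 3) and below them in aggregates (-0.47, -1.14 and -0.87). The bile salt export pump Abcb11 was at -4.41, -4.06 and -3.78 in monolayers against -3.96, -3.91 and -3.97 in aggregates, overlapping groups that were not called.

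Cytochromes P450 and other phase I enzymes differed in both directions, with 7 of 51 measured members called higher, 4 lower and a median of 0.05. The called share was 21.6%, against 15.2% of all genes. Cyp3a11, the main PXR-inducible P450, differed by -0.15 and was not called. Aox1, an aldehyde oxidase, stood at -2.79, -2.85 and -2.60 in monolayers and at -1.53, -0.85 and -0.73 in aggregates (1.71 ± 0.18). Ephx1, microsomal epoxide hydrolase, stood at -0.30, -0.39 and -0.30 in monolayers against 0.45, 0.75 and 0.79 in aggregates (0.99 ± 0.16), and Aldh1a7, an aldehyde dehydrogenase, differed by 1.02 ± 0.12. Without monolayer replicate 3 the count of 11 called members was 6.

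Of 46 measured conjugation enzymes, 16 were called higher and 8 lower. The 2 largest higher differences were glutathione transferases of the mu class. Gstm3 stood at -0.42, -0.52 and -0.93 in monolayers and at 3.17, 2.82 and 2.53 in aggregates (3.47 ± 0.35, 11.1-fold), and Gstm4 stood at -1.96, -1.89 and -2.18 in monolayers against 1.02, 1.17 and 0.65 in aggregates (2.96 ± 0.33). The groups did not overlap in either gene, and near-identical family members can share probe signal. The lower members included sulfotransferases and glucuronosyltransferases. Sult2a8, a hepatic sulfotransferase, stood at -5.01, -5.69 and -4.74 in aggregates against -3.22, -3.51 and -2.39 in monolayers (-2.11 ± 0.27), and Ugt2a3 differed by -1.10 ± 0.15.

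Genes of the NRF2 response and the metallothioneins had 6 of 28 measured members called higher and 1 lower. Beside Cbr3, Gss, glutathione synthetase, stood at 0.87, 0.35 and 0.75 in monolayers and at 2.44, 2.73 and 2.42 in aggregates (1.88 ± 0.34). Mt1, a metallothionein that binds zinc and copper, stood at -3.65, -4.72 and -5.08 in monolayers against -1.45, -1.65 and -2.30 in aggregates (2.68 ± 0.35). Only 1 of its 2 probe sets off the background was called. Mt2, another metallothionein, was not called (-0.40) and had every aggregate array below every monolayer array. Its means lay above fresh cells, at 1.75 in monolayers and 1.35 in aggregates. Cbr1 was higher by 1.90 ± 0.44 and lost its call without aggregate replicate 3 (adjusted p = 0.0521). Hmox1, haem oxygenase, was the called lower member (-1.14 ± 0.34), and it lost its call without monolayer replicate 1, 2 or 3 and without aggregate replicate 1 or 2. Gclm, a standard NRF2 target, differed by 0.13 and was not called.

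The urea cycle and amino acid catabolism list split evenly, with 10 of 46 measured members called higher, 10 lower and a median of -0.18. Its members were far below fresh cells in both vessels, with medians of -3.33, -3.05 and -3.23 in monolayers and -3.07, -2.95 and -3.36 in aggregates. Agxt, which detoxifies glyoxylate, stood at -5.47, -5.34 and -5.23 in aggregates against -3.82, -3.64 and -2.76 in monolayers (-1.94 ± 0.35). Hpd, an enzyme of tyrosine breakdown, differed by -1.95 ± 0.26 and Oat, ornithine aminotransferase, by -1.33 ± 0.18. Cps1, the first enzyme of the urea cycle, was lower in aggregates too, at -3.46, -4.66 and -5.33 against -3.01, -2.58 and -3.22 in monolayers (-1.55 ± 0.35). In the other direction, Gldc of the glycine cleavage system stood at -1.11, -0.87 and -1.29 in aggregates against -3.23, -4.34 and -3.46 in monolayers (2.58 ± 0.50), and Glul, glutamine synthetase, at -1.58 to -0.94 in aggregates against -2.58, -2.57 and -2.41 in monolayers (1.35 ± 0.18).

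Liver zonation genes did not move as 1 block. Of 21 measured pericentral and Wnt-dependent genes, 4 were called higher and 3 lower, and of 21 periportal genes, 3 were called higher and 4 lower. Among the pericentral genes Glul was higher and Oat lower, and the Wnt targets Axin2 (-0.00) and Lgr5 (-0.20) were not called. Cyp2e1, a pericentral P450, was below fresh cells in every array, with a difference of -0.41 ± 0.09 that lost its call without monolayer replicate 3 or aggregate replicate 2. Among the periportal genes Pck1 and Cps1 were lower. Hal, histidine ammonia-lyase, was lower (-2.25 ± 0.53), and lost its call without monolayer replicate 2 (adjusted p = 0.05946). The pericentral count of 7 fell to 4 without monolayer replicate 3 or aggregate replicate 2, and the periportal count of 7 fell to 4 without monolayer replicate 2, aggregate replicate 2 or aggregate replicate 3.

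Many genes of the actin cytoskeleton were lower in aggregates. Of 54 measured actins, tropomyosins and actin-binding proteins, 20 were called lower and 1 higher, 12 of the 20 by at least 2-fold, and the median was -0.40. The median over members stood at 1.79, 1.78 and 1.70 above fresh cells in monolayers and at 1.16, 0.92 and 1.16 in aggregates. Msn, moesin, which ties actin to the membrane, stood at 4.50, 5.32 and 5.93 in monolayers and at 1.63, 0.05 and 1.61 in aggregates (-4.15 ± 0.40). Enah, an actin polymerisation factor at filopodia and focal adhesions, stood at 2.13, 3.98 and 4.72 in monolayers against -0.05, -0.04 and -0.08 in aggregates (-3.66 ± 0.45). The aggregate and fresh arrays of Enah lay within 0.2 of the background median, so its difference may be limited by the floor. Tpm4 was lower by a smaller amount (-0.98 ± 0.19). The cytoplasmic actin Actb differed by -0.27 and was not called.

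Of 14 keratins and other intermediate filament genes, 5 were called lower and none higher. Krt19, a keratin of bile duct and progenitor cells, stood at 2.75, 4.60 and 5.37 in monolayers and at -0.06, -0.04 and -0.11 in aggregates (-4.31 ± 0.46). Vim, vimentin, was far above fresh cells in both, at 10.34, 10.23 and 10.40 in monolayers against 8.41, 7.42 and 7.99 in aggregates (-2.38 ± 0.57), and lost its call without aggregate replicate 2 (adjusted p = 0.06444). Lmnb1, lamin B1, differed by -0.77 ± 0.11. In Krt19 and Lmnb1 the aggregate and fresh arrays lay within 0.2 of the background median, so both differences may be limited by the floor. The SD of Krt19 was 1.35 in monolayers and 0.035 in aggregates, so its standard error also rests in part on flat groups. The count of 5 was 3 without monolayer replicate 2 or 3 and 2 without aggregate replicate 2. Of 19 tubulins and microtubule partners 3 were called lower, 15.8% against 15.2% of all genes called, and Tuba1a, at 5.69, 6.01 and 6.25 in monolayers against 3.47, 2.28 and 3.95 in aggregates, was the 1 that stayed called without monolayer replicate 1, 2 or 3 or aggregate replicate 3. Of 15 annexins and S100 proteins 5 were called lower and none higher. Anxa3 stood at 8.78, 8.94 and 10.02 in monolayers against 5.43, 5.09 and 6.42 in aggregates (-3.60 ± 0.33), and S100a16 differed by -1.84 ± 0.20, while S100a6 and Anxa2 lost their calls in 5 or more of the fits without 1 array, leaving 3 called members.

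Integrins and focal adhesion genes, which anchor actin to the matrix, were lower in 12 of 35 measured members and higher in 2, with a median of -0.43. Cavin3, a coat protein of caveolae, stood at 4.12, 4.82 and 4.79 in monolayers and at 0.04, -0.02 and -0.02 in aggregates (-4.58 ± 0.15, adjusted p = 2.797e-09). Fblim1, which recruits filamin to adhesions, stood at 2.94, 2.83 and 3.00 in monolayers against -0.02, -0.03 and 0.00 in aggregates (-2.94 ± 0.07). The aggregate and fresh arrays of Cavin3 and Fblim1 lay within 0.2 of the background median, so both differences may be limited by the floor. The SD of Cavin3 was 0.396 in monolayers and 0.036 in aggregates, so its standard error and p rest in part on flat groups. Src, the adhesion-linked tyrosine kinase, stood at 4.07, 4.94 and 4.91 in monolayers against 1.89, 1.11 and 2.15 in aggregates (-2.92 ± 0.31). Itga3, a laminin-binding integrin chain, stood at 2.79, 3.38 and 3.76 in monolayers against 0.31, 0.48 and 0.86 in aggregates (-2.76 ± 0.21), and Itgb1, its beta partner, differed by -0.82 ± 0.12. In each of these genes every aggregate array lay below every monolayer array. Itgb5, a vitronectin-binding chain, was 1 of the 2 higher members (0.63 ± 0.18), and lost its call without monolayer replicate 2 or aggregate replicate 2 or 3.

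YAP targets and Hippo regulators had 6 of 31 measured members called lower and 2 higher. Ankrd1, a muscle ankyrin repeat protein and standard YAP target, stood at 3.50, 3.50 and 4.31 in monolayers and at -0.03, 0.02 and -0.06 in aggregates (-3.79 ± 0.17, adjusted p = 6.77e-08). Fhl2, a LIM-domain cofactor, stood at 3.61, 4.77 and 4.39 in monolayers against 1.28, 1.24 and 1.33 in aggregates (-2.97 ± 0.31). Ccn1, the close relative of Ccn2, differed by 0.95 without being called, and 1 of its 4 probe sets was called lower. The coactivator gene Yap1 itself (-0.09) was not called. TEAD factors bind GGAATG, which 12.6% of promoter windows hold on either strand. Of the 8 called members of this list, 6 had a promoter window and 2 of these held the motif. Of the same 6, 3 held GCGTG and 2 held ACGTG, the other cores given above. No window was available for Ccn2. The window before the Ankrd1 start, from RefSeq on GRCm38.p6 at chr19:36119845-36120094, minus strand, is printed because it holds this motif at 2 positions, 210 and 123 bases before the start, in capitals.
Ankrd1: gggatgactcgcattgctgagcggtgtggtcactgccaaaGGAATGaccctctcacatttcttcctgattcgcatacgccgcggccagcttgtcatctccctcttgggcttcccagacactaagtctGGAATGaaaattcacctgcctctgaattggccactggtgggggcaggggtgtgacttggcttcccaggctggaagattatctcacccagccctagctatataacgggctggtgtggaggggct

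The SRF and MRTF targets had 3 of 25 measured members called lower and 1 higher, with a median of -0.09. These 4 of 25 are a share near the 15.2% called over all genes. Fosl2, an AP-1 component, stood at 4.29, 5.07 and 4.87 in monolayers and at 2.72, 2.26 and 2.63 in aggregates (-2.21 ± 0.24), and Klf4, a zinc finger factor, at 6.54, 6.88 and 6.77 in monolayers against 5.13, 3.82 and 4.74 in aggregates (-2.17 ± 0.38). Fos was the higher member (1.20 ± 0.32), with overlapping groups, and Tagln, a classical smooth muscle target, was lower (-0.33 ± 0.10); each lost its call in at least 4 of the 6 fits without 1 array. Without monolayer replicate 2 or 3 or aggregate replicate 2 or 3, the count was 2. Srf itself differed by -0.87 and was not called.

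Matrix, matrix-modifying and TGF-beta genes were lower in 10 of 40 measured members and higher in 3. Thbs1, thrombospondin, which activates latent TGF-beta, stood at 2.91, 5.46 and 5.79 in monolayers and at -0.02, -0.03 and -0.04 in aggregates (-4.75 ± 0.54). Plat, tissue plasminogen activator, stood at 1.90, 4.35 and 4.61 in monolayers against 0.46, -0.03 and 0.25 in aggregates (-3.40 ± 0.51). Tgfb2, a TGF-beta ligand, stood at 2.33, 4.21 and 4.29 in monolayers against -0.02, -0.03 and -0.04 in aggregates (-3.64 ± 0.38), and its call rested on a probe set that can share sequence with other genes. Monolayer replicate 1 was the lowest monolayer in these 3 genes and still stood above every aggregate. The aggregate and fresh arrays of Thbs1 and Tgfb2 lay within 0.2 of the background median, so both differences may be limited by the floor.

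Cell junction genes moved in both directions, with 6 of 34 measured members called higher and 3 lower. The gap junction proteins of hepatocytes were higher in aggregates. Gjb2, connexin 26, stood at -2.33, -3.57 and -3.58 in monolayers and at -0.31, 0.12 and -0.19 in aggregates (3.03 ± 0.27, adjusted p = 1.818e-05), and Gjb1, connexin 32, at -3.30, -2.71 and -3.19 in monolayers against -1.40, -1.22 and -1.53 in aggregates (1.68 ± 0.21). The aggregates kept Gjb2 near the fresh level. Cldn2, a pore-forming claudin, was higher by 1.65 ± 0.30. Cldn4, a claudin of ductal and other tight epithelia, was lower, at 6.06, 3.79 and 6.23 in aggregates against 9.18, 9.62 and 10.20 in monolayers (-4.31 ± 0.52). E-cadherin, Cdh1, differed by -0.25 and was not called. The count of 9 fell to 5 without monolayer replicate 1, 2 or 3 or aggregate replicate 2 or 3.

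Receptors of the interleukin 6 family and related cytokines had 5 of 19 measured members called higher and 1 lower. Osmr, the oncostatin M receptor, stood at 2.56, 1.90 and 3.15 in monolayers and at 4.74, 4.25 and 5.26 in aggregates (2.22 ± 0.38), above fresh cells in all 6 arrays. Il1r1, the interleukin 1 receptor, stood at -2.22, -2.26 and -2.29 in monolayers against -0.52, -1.12 and -0.85 in aggregates (1.43 ± 0.32). With Lepr this gave 3 receptors with higher values in aggregates, and Il13ra1 was higher by 1.36 ± 0.38 but lost its call without monolayer replicate 1 or 2 or aggregate replicate 1 or 3. The shared subunit Il6st (-0.03) and the downstream factor Stat3 (0.15) were not called.

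Growth factor and MAPK feedback genes were lower in 7 of 30 measured members and higher in 2. Dusp5, a nuclear ERK phosphatase, stood at 1.68, 2.22 and 2.22 in monolayers and at 0.23, -0.01 and 0.56 in aggregates (-1.77 ± 0.20), while Dusp6, a cytoplasmic ERK phosphatase, was higher, at -0.89, 0.25 and -0.34 in aggregates against -1.93, -1.78 and -2.23 in monolayers (1.66 ± 0.34). Fgfr4, the hepatic receptor for FGF15, was lower, at -2.52, -2.56 and -2.61 in aggregates against -1.41, -0.35 and -0.27 in monolayers (-1.89 ± 0.30). Hbegf, an EGF receptor ligand, was lower (-1.31 ± 0.30) and lost its call without aggregate replicate 2 (adjusted p = 0.05006), which also reduced the count of 9 to 5. In the growth hormone, IGF and insulin list, 5 of 27 measured members were called higher and 2 lower, and Grb14, an inhibitor of the insulin receptor, stood at -0.95, -1.82 and -1.32 in monolayers against -0.02, -0.20 and -0.03 in aggregates (1.28 ± 0.21). That count of 7 fell to 4 without aggregate replicate 1 and to 2 without monolayer replicate 2 or 3 or aggregate replicate 2 or 3.

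Of 60 measured acute phase, complement and coagulation genes, 9 were called higher and 3 lower, with a median of 0.12. F7, coagulation factor VII, stood at -2.50, -2.56 and -2.54 in monolayers and at -1.41, -1.03 and -1.47 in aggregates (1.23 ± 0.14). Klkb1, plasma prekallikrein, and F11, coagulation factor XI, were lower (-1.35 ± 0.21 and -1.21 ± 0.22). Chemokines and NF-kB genes had 1 of 33 measured members called higher and 3 lower, 12.1% against 15.2% of all genes. Ackr3, a scavenging receptor for CXCL12, was lower, at 1.61, 1.80 and 2.45 in aggregates against 4.42, 3.90 and 4.84 in monolayers (-2.44 ± 0.31), and its ligand Cxcl12 was higher, at -7.52, -4.93 and -6.11 in aggregates against -9.13, -8.20 and -9.26 in monolayers (2.68 ± 0.68). Cxcl12 lost its call without monolayer replicate 1 or 3 or aggregate replicate 2 or 3. The chemokine count of 4 fell to 2 without monolayer replicate 2 or aggregate replicate 3 and to 1 without monolayer replicate 3 or aggregate replicate 2.

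The proteasome had 7 of 37 measured members called higher and 1 lower, 21.6% against 15.2% of all genes. The largest differences were in immune or regulatory subunits. Psmb8, an interferon-inducible catalytic subunit, stood at -2.70, -3.34 and -1.92 in monolayers and at -1.20, -0.90 and -0.67 in aggregates (1.73 ± 0.29), and Psmb10 and the activator Psme1 differed by 1.13 ± 0.25 and 1.06 ± 0.17. The respiratory chain and ATP synthase list had 11 of 62 members called higher and 2 lower (21.0%), with a median of 0.13. Ndufs7 of complex I (0.69 ± 0.13) was among the higher ones. That count of 13 was 8 without monolayer replicate 2 and 6 without aggregate replicate 2. Of 42 ribosome biogenesis and translation genes, 4 were called lower and none higher (9.52%), and Eif4e, the cap-binding factor, differed by -1.71 ± 0.36. By limma, 0 of 22 cholesterol synthesis and uptake genes were called. By the unadjusted limma p, 2 of the 22 were below 0.05, and 1 was called without aggregate replicate 1 or without the 4 h monolayer replicate 2.

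Stress and growth lists held single large members. Nupr1, a stress-induced nuclear protein listed with the integrated stress response, stood at 9.12, 9.86 and 9.28 in monolayers and at 6.20, 4.79 and 5.19 in aggregates (-4.03 ± 0.39), while 18 of the 21 members of that list, Atf4 (-0.40) and Ddit3 (0.11) included, were not called. Among 26 endoplasmic reticulum genes the sensor Ern1 was the called member, and its probe sets were called in opposite directions, so its value is uncertain; without the 4 h monolayer replicate 2, a second member was called. Of 24 cytosolic heat shock genes 3 were called higher and 3 lower, and this count of 6 was 2 without monolayer replicate 2 or 3 or aggregate replicate 2 or 3. Of 42 cell cycle and growth arrest genes 4 were called lower and none higher. Ccne2, cyclin E2, stood at 1.28, 2.09 and 1.81 in monolayers and at -0.05, -0.53 and -0.45 in aggregates (-2.07 ± 0.31), and Ccnd1, cyclin D1, differed by -0.38 without being called. Among 18 clock genes Hlf alone was called (2.60 ± 0.35), at -4.18, -5.48 and -5.05 in monolayers against -2.42, -1.87 and -2.61 in aggregates.

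Markers were used to check the labelled cell type. The 12 measured hepatocyte markers had medians of -0.75, -0.65 and -0.63 in monolayers and -0.66, -0.57 and -0.58 in aggregates. Alb stood at -0.09, -0.05 and -0.03 in monolayers against -0.19, -0.18 and -0.08 in aggregates and was not called, Hpd and Cps1 were lower, and Apob was higher in aggregates. Since the fresh level was subtracted, the markers show change and not presence. Of 13 macrophage markers, 1 was called higher (Mpeg1, 1.67 ± 0.50) and 1 lower (Cd68, -1.21 ± 0.16), 15.4% against 15.2% of all genes. Their medians were 0.53, -0.16 and -0.08 in monolayers and 2.50, -0.17 and 1.35 in aggregates, and the groups overlapped. Mpeg1 lost its call when any of the 6 arrays but monolayer replicate 1 was left out. Of 8 stellate and fibroblast markers, Reln (-4.95 ± 0.42) and Ecm1 (-0.85 ± 0.24) were called lower. Of 10 sinusoidal endothelial markers, Stab2 was called lower (-2.36 ± 0.31) and Fcgr2b higher (1.32 ± 0.32). Ecm1 lost its call without monolayer replicate 2 or 3 or aggregate replicate 2 or 3, and Fcgr2b without monolayer replicate 2 or aggregate replicate 3. The part of other cell types in these results was not tested.

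Of the 4 cholangiocyte markers, Krt19, Cldn4 and Epcam were called lower and Sox9 differed by -1.85 without being called. Their median stood at 3.69, 5.12 and 5.40 above fresh cells in monolayers and at 1.97, 1.25 and 1.95 in aggregates. Krt19 and Epcam are also listed with fetal liver and progenitor genes, where 3 of 18 measured members were called lower and 1 higher. The higher member was Afp, alpha-fetoprotein, the fetal counterpart of albumin, at 1.88, 1.23 and 1.93 in monolayers and 3.34, 3.12 and 3.49 in aggregates (1.64 ± 0.28). In these bulk samples, fewer cells of a type and less RNA per cell cannot be told apart.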

How the data were processed

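Hepatocyte RNA was hybridised to Affymetrix mouse arrays, 15 in all. Per the submitters' processing notes the signals were made with GCRMA (version not given). The deposited values are taken as log2 signals, from the usual scale of GCRMA, as no label gives the base; the median of the fresh arrays is 0 for every probe set, so the authors' table holds change and no level. Groups came from the sample titles.

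Probe sets with several symbols or none were left out, and background probe sets were those that followed the arrays' medians over the 20% least variable ones (r above 0.8, SD below 0.5). A filter on level was not possible. Each gene was read by 1 probe set, and the choice drew on the array values. Other probe sets of a gene can give a smaller difference, so each size given belongs to the probe set read. limma 3.58.1 in R 4.3.3 fitted all 5 groups, with Benjamini-Hochberg adjustment and a threshold of 0.05; Python 3.11.15, pandas 2.3.3 and matplotlib 3.10.9 were also used. The number of arrays limits the precision. On simulated data of 12423 genes for this comparison, 8, 25, 45 and 50 of 50 genes changed by 0.5, 1, 2 and 4 (log2) were recovered, and 8 unchanged genes were called.

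The text names the 10 largest called differences each way, some of the members marked in the lists, and up to 4 called members of each list. Many marked members that were not called are left out, so the genes named lean towards called ones. Others are said to be chosen after their values were seen. The comparison, its lists and its tests were chosen with earlier results of these data known. Alternatives changed the filter, the probe set rule, the centring, the arrays fitted, the replicate block, array weights and the variance prior, and left out single arrays.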

Additional observations from a re-analysis of the deposited data

Results flagged for a closer look

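For 18 of the 20 genes with the largest 24 h differences, the difference of aggregates minus monolayers was not the same at 24 h as at 4 h by the interaction term of the limma fit. Each value here is the 24 h difference minus the 4 h difference on the log2 scale. Among the genes higher in aggregates it was 6.25 for Cyp1a1, 5.44 for Slc17a3, 4.45 for Baat and 4.35 for Lepr. It was 4.10 for Abcc12, 3.79 for Hjv, 3.44 for Gm19950 and 2.89 for Rgs16. Among the genes lower in aggregates it was -5.85 for Plod2, -5.54 for Serpinb9g, -5.40 for Acta1, -5.14 for Slc16a3 and -5.09 for S100a4. It was -5.04 for Tmem108, -4.95 for Ccn2, -4.59 for Hk1, -4.55 for Tpm2 and -4.34 for Lce1d. These genes were selected for large 24 h differences, which favours a large value here.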

How the results depend on the processing

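The number of genes called at 24 h was 1890. It ranged from 1234 to 2280 when 1 of the 6 arrays compared or the 4 h monolayer replicate 2 was left out. The lowest count was without aggregate replicate 2. In the same fits the count at least 2-fold ranged from 726 to 979. The interaction count ranged from 1070 to 1667 when 1 array of either vessel at 4 h or 24 h was left out. Fresh arrays were not left out. Array weights gave 3057 called genes. Averaging the probe sets of each gene gave 2061 called genes and 761 at least 2-fold, against 931 at least 2-fold in the main fit. Of 319 named genes, 301 then kept their call or lack of one, 11 lost a call, 6 gained one and 1 reversed. Among others, Itga3 and Ero1a had 1 of 3 probe sets called, Enah, Fosl2 and Psmb8 1 of 2, and Fgfr4 2 of 4. These genes kept their calls on averaging. Without the background filter the interaction was called in 3147 genes, positive in 2043 and negative in 1104, so the balance of signs turned. The gap of the Gapdh control was -0.00256 with the middle in place of the 5' probe set. Same-numbered arrays of the vessels had deviations correlated at 0.132, 0.083 and 0.364, and each array correlated best with its own number. Some variable genes followed the numbers closely. Cyp4a14 stood at -6.5, -3.2 and -0.9 in monolayers and at -6.3, -3.2 and -1.4 in aggregates. This is a hint of pairing from the data and not the design. The main fit and its standard errors do not pair the arrays, and whether equal numbers share a preparation was not tested. With the replicate block 2193 genes were called, 1822 of them shared with the fit without it, and 1895 for the interaction. The block with only the 6 arrays compared gave 1051 called genes and 480 at least 2-fold. In that fit 88 of the named genes lost their call, and most of these losses are not given with the genes above. Hnf4a, Nr1h4, Gjb2, Hk2, Pkm, Ldha, Krt19, Cldn4, Thbs1 and Plat were among the 88. The 2-fold calls were 60.0% higher on centred arrays against 51.8%. Cs reversed to -0.00373 with the mean of its probe sets (adjusted p = 0.9999); the cause was not tested. Of 191 called named genes, 87 kept direction and call under every alternative. The list median changed sign for annexins and S100 proteins (-0.31 to 0.13 without shared-sequence probe sets), for bile acid genes (0.20 to -0.18 without monolayer replicate 3 and -0.10 without aggregate replicate 1) and for sinusoidal markers (0.12 to -0.06 without aggregate replicate 3).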

Other observations

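Genes outside the lists also differed; those named here were chosen after their values were seen. Beside Lce1d, the cornified envelope genes Lce1f, Ivl and Lor, structural genes of the outer skin, were lower in aggregates by limma. The probe set of Lce1d can share sequence with other genes, so Lce1d and Lce1f may not be separate signals. Ivl, involucrin, stood at 2.97, 5.80 and 5.25 in monolayers and at 0.96, -0.26 and 1.50 in aggregates. Lor, loricrin, stood at 3.30, 5.03 and 4.69 in monolayers and at 1.33 to 2.51 in aggregates. Filip1l, a filamin-interacting protein, differed by -4.78 ± 0.26 and Mgarp, a mitochondrial protein, by -4.66 ± 0.27. Inhba, the activin A subunit, and Pgf, placental growth factor, were lower (-2.61 ± 0.41 and -3.75 ± 0.56).

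Among genes higher in aggregates, Klf15, a factor of fasting metabolism, stood at -7.75, -8.99 and -8.73 in monolayers and at -5.23, -4.42 and -5.42 in aggregates. Gpd1, which makes glycerol 3-phosphate, stood at -3.05, -2.73 and -3.49 in monolayers and at -0.99, -0.68 and -1.01 in aggregates. Acsm5 and Acsm3, medium-chain acyl-CoA synthetases, differed by 3.37 ± 0.31 and 2.20 ± 0.43. Deptor, an inhibitor of mTOR, differed by 2.50 ± 0.33. Every aggregate array lay above every monolayer array in these 5 genes, and all were below fresh cells in both vessels.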
